A study of Mus musculus with 12 samples.

Results

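Ccr7, S1pr1, Klf2, Foxo1, Cd69, Cd44, Dapl1, Satb1 and Ly6c2 are genes by which the lymph node homing and the resting state of T cells are commonly read. They were taken from the gene table by symbol, which gave 9 of 55487 genes. All 9 passed the filter on low counts, as did 15897 genes in all. Total RNA of cytotoxic CD8+ T cells prepared from splenocytes of C57BL/6 mice was sequenced in bulk. The cells were kept with IL-2, on which T cells depend to grow and survive, or with IL-12, which acts through STAT4 to promote interferon gamma production. Either was given alone or with 80%TCM, a term not spelled out in the labels (the series title mentions tumor-like conditions) and written TCM from here on. This gave 4 groups of 3 libraries, named IL-2 and IL-12 when no TCM was added. No group lacked a cytokine, so that every comparison is between cytokine-treated cells. The labels give no age, no duration of treatment and no source of the replicates. If the libraries of a group did not come from separate animals or cultures, p-values reflect nothing but library-to-library spread, which may be technical.

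T cells recirculate through lymph nodes by a pair of opposing signals. CCR7, the receptor for the chemokines CCL19 and CCL21, draws cells into the node, and S1PR1, a receptor for the blood-borne lipid sphingosine 1-phosphate, draws them out again. CD69 binds S1PR1 and takes it off the cell surface. The transcription factor KLF2 drives S1pr1 and keeps T cells quiescent, and FOXO1, a factor held inactive by AKT, drives Klf2, Ccr7 and the IL-7 receptor. CD44, a receptor for hyaluronan, and the GPI-anchored surface protein Ly6C mark antigen-experienced and memory CD8+ T cells. SATB1 is a chromatin organiser of T cells, and Dapl1 is used as a marker of naive and memory-like CD8+ T cells.

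The promoters of 4 genes are shown because their messenger RNA differed in distinct ways between the groups. Klf2 and Cd44 were lower with TCM in IL-12, Foxo1 was higher there, and Dapl1 differed between the cytokines. Each is the 250 bases before the annotated start in RefSeq (build GRCm38.p6), written 5′ to 3′ on the strand of the gene. They lie at chr8:72318812-72319061 on the plus strand (Klf2), chr2:59484403-59484652 on the plus strand (Dapl1), chr3:52268087-52268336 on the plus strand (Foxo1) and chr2:102901666-102901915 on the minus strand (Cd44). Capitals mark matches to GTAAACA, a FOXO motif, or to CACCC, a KLF motif, on either strand (TGTTTAC and GGGTG as their reverse complements).
Klf2: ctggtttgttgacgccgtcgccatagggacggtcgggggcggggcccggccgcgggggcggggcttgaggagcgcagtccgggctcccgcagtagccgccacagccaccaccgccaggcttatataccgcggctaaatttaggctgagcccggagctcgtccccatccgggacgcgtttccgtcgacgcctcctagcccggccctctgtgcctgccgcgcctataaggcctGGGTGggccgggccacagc
Dapl1: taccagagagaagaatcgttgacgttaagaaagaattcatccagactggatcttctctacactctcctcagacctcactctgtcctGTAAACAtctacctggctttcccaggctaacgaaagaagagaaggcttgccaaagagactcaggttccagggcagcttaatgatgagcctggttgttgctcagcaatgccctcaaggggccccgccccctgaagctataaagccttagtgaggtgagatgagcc
Foxo1: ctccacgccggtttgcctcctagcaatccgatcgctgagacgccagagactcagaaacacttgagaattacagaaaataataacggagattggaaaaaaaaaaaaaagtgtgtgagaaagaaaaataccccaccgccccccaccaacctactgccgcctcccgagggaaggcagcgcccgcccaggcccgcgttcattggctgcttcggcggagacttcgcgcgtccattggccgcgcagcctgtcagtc
Cd44: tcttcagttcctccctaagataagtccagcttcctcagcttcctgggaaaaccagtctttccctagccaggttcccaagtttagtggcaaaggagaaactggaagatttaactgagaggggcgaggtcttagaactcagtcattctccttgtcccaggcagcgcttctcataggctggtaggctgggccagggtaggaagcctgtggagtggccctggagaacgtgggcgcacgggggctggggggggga
The Klf2 window held 1 CACCC on the minus strand, from 19 to 15 bases before the start, and was rich in G and C (71.2%). Dapl1 had 1 GTAAACA, from 164 to 158 bases before its start. Foxo1 and Cd44 held neither motif. The STAT motif TTCNNNGAA, which reads the same on both strands, was in none of these 4 windows, and none of the searched motifs contains another. Of 32851 promoters of the same length, 3.17% held GTAAACA, 52.0% held CACCC and 7.02% held TTCNNNGAA, so that a CACCC match is common. Promoters were matched for 6 of the 9 genes. Those of Satb1 (5 starts) held 0 to 3 CACCC matches, and those of Ly6c2 (2 starts) held 0 or 1. A match is a description of the letters only.

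The libraries held 19.5 to 26.0 gene counts each in units of 1e+06, except replicates 1 and 2 of the IL-12 group, with 49.6 and 42.3. All 7 CD8+ T cell markers were present, with a summed level of 3836 to 4642 counts per 1e+06 counts (CPM) in every library, while Cd4 lay between 0.451 and 4.50 CPM. The extraction text speaks of livers, which no sample label names. Ttr, Serpina1a, Cyp3a11 and Fgb, which are defining liver transcripts, were at 0 in every library, and the 6-gene hepatocyte sum stayed at or below 0.132 CPM. Platelet markers differed between the groups (4 of 4 tested lower with TCM in either cytokine and lower with IL-12 in either medium, Gp1bb at 0): their 5-gene sum was 101 to 125 CPM in IL-2, 41.7 to 53.6 in IL-2 with TCM, 57.6 to 68.4 in IL-12 and 23.2 to 29.2 in IL-12 with TCM. Of the 5 NK cell markers, Eomes, Klrd1 and Nkg7 are also genes of CD8+ T cells, and Ncr1 was at most 0.334 CPM. Endothelial markers summed to 104 to 144 CPM, mostly Pecam1 (91.2 to 126), with Vwf at 4.30 to 27.1 and Cdh5 at most 0.0504. B cell markers summed to 16.6 to 20.1 CPM in the IL-2 groups and to 6.30 to 9.58 in the IL-12 groups. The part of other cells in the results below was not tested. In bulk RNA, fewer cells that express a gene and less RNA per cell cannot be told apart.

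Replicate 3 of both IL-2 groups stood apart from the other libraries. Its 10-gene glycolysis sum was 18280 CPM in IL-2 against 6108 and 6321 in the other replicates, and 20773 CPM in IL-2 with TCM against 6255 and 6592. The 8-gene hypoxia sum was 440 CPM against 159 and 162 in IL-2, and 595 against 188 and 192 in IL-2 with TCM. The glycolysis sum was 9544 to 10268 CPM in IL-12 and 10996 to 12616 in IL-12 with TCM. The hypoxia sum was 145 to 153 CPM in IL-12 and 280 to 294 in IL-12 with TCM, so neither sum overlapped between those groups, and their part in the TCM differences within IL-12 was not tested. S1pr1, Klf2, Dapl1, Satb1 and Ly6c2 were lowest in replicate 3 of both IL-2 groups, a pattern seen in 26.7% of tested genes. Cd44 was highest in replicate 3 of both, as were 22.9% of tested genes. The replicate 3 libraries of the IL-2 groups deviated together (residual correlation 0.57). For replicates 1 and 2, equal numbers (0.28 and 0.25) were no closer than unequal ones (0.30 and 0.27). The labels give no pairing, so a block by replicate number rests on an assumed match. The fit with this block is given beside each IL-2 result whose call it changes. Results without replicate 3 of both IL-2 groups are given as counts of called genes for each comparison. For single genes they are given only in part, so a gene without such a value may still change its call.

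With TCM in IL-12, Klf2, Ly6c2, Cd44, S1pr1 and Cd69 fell and Foxo1 rose, which is 6 of the 9 genes called at an adjusted p under 0.05 in edgeR's quasi-likelihood test. Of all tested genes, 29% were called in that comparison (14.8% higher and 14.2% lower). In 8 of the 9 genes, all but Ccr7, the libraries with and without TCM did not overlap, against 52% of tested genes. The median log2 fold change was -0.35 for the 9 genes and 0.01 for all tested genes. With TCM in IL-2, only Foxo1 of the 9 was called, and it fell, where 14.5% of tested genes were called (6.73% higher and 7.82% lower) and 27.3% had groups that did not overlap. With the replicate number as a block in the IL-2 groups, the test called 5 of the 9, adding lower S1pr1, Klf2 and Ly6c2 and higher Dapl1, where 27.9% of tested genes were called. With both replicate 3 libraries of IL-2 left out it called 4 of the 9, namely S1pr1, Foxo1, Ly6c2 and Dapl1, where 24.7% of tested genes were called. For TCM in IL-12 the block called 7 of the 9 (42% of tested genes), and so did the fit without those replicate 3 libraries (46%).

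Between the cytokines without TCM, Foxo1, Cd69, Cd44 and Satb1 were higher in IL-12 and Ccr7, Dapl1 and Ly6c2 were lower, which is 7 of 9 genes called where 45.1% of tested genes were called (22.1% higher and 23% lower). With TCM, Foxo1, Cd69 and Satb1 were higher in IL-12 and Ccr7, Klf2, Dapl1 and Ly6c2 lower, again 7 of 9, where 39% of tested genes were called (19.5% higher and 19.4% lower). Groups did not overlap in 8 of the 9 genes in either comparison, S1pr1 being the exception, against 57.2% and 50.1% of tested genes. Median absolute log2 fold changes were 0.62 and 0.77 for the 9 genes and 0.30 and 0.27 for all tested genes. Upper-quartile scaling lowered the share of higher genes among all calls from 49.0% to 36.4% without TCM and from 50.2% to 37.0% with TCM. The block called 8 of the 9 without TCM (56% of tested genes) and 9 of 9 with TCM (49%), and leaving out both replicate 3 libraries of IL-2 gave 9 of 9 in either medium (52.3% and 48%). The comparisons share groups pairwise, so their values stand side by side and are not independent of each other. A direct test of the difference between the TCM effects in the cytokines called Foxo1 and Cd44, 2 of 9, where 1.58% of tested genes were called (1.19% higher and 0.39% lower). The block called 6 of 9 there (10.5% of tested genes), and the fit without both replicate 3 libraries called 7 of 9 (13.2%).

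**Figure D1:**
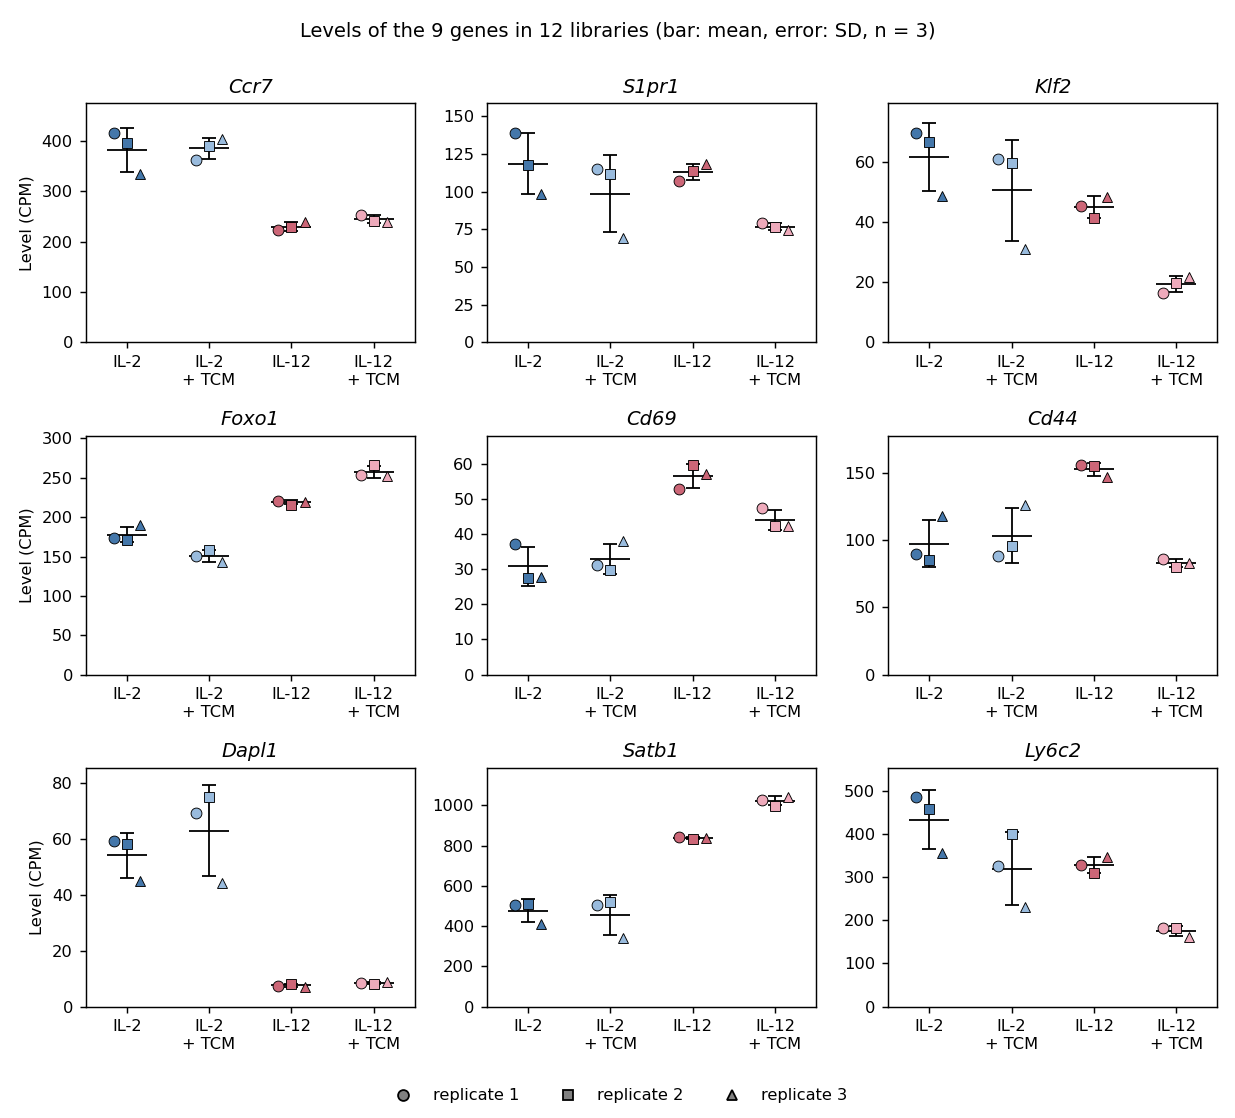
Level of each of the 9 genes in the 12 libraries, in CPM on a linear axis from 0, with a marker shape per replicate number, a bar at the mean and the SD over 3 libraries. Dapl1 sits below 9 CPM in all 6 IL-12 libraries and above 44 in all 6 IL-2 libraries, and replicate 3 of the IL-2 groups lies lowest for S1pr1, Klf2, Dapl1, Satb1 and Ly6c2.

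Ccr7, the receptor that draws T cells into lymph nodes, was lower in IL-12 and did not pass the test with TCM. It stood at 416, 396 and 334 CPM in IL-2 and at 362, 389 and 404 in IL-2 with TCM. In IL-12 the libraries gave 222, 228 and 239 CPM, and in IL-12 with TCM 254, 241 and 239. The 6 IL-12 libraries all lay below the 6 IL-2 libraries, and within a cytokine the groups with and without TCM overlapped. Against IL-2, Ccr7 was 1.68-fold lower in IL-12 (log2 fold change -0.75 ± 0.07 SE, edgeR adjusted p = 2.6e-06) and 1.58-fold lower when TCM was present in both (-0.66 ± 0.07, edgeR adjusted p = 8.7e-06). The effect of TCM on Ccr7 was 0.01 on the log2 scale in IL-2, with a 95% interval of -0.15 to 0.16, and 0.10 in IL-12, with an interval of -0.05 to 0.26. Higher Ccr7 with TCM in IL-12 was called in a fit of those groups alone (adjusted p = 0.048), and the difference of its TCM effects when both replicate 3 libraries of IL-2 were left out (0.047). From lowest to highest mean, the order was IL-12, IL-12 with TCM, IL-2 and IL-2 with TCM, of which only the step from the IL-12 to the IL-2 groups exceeded the spread. In 24 alternative settings the lower level in IL-12 stayed called in both media.

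S1pr1, the receptor through which T cells leave lymph nodes, fell with TCM in IL-12. Its level was 139, 118 and 98.6 CPM in IL-2, and 115, 112 and 69.0 in IL-2 with TCM. The IL-12 libraries gave 107, 113 and 118 CPM, and in IL-12 with TCM 78.9, 76.8 and 74.8. The IL-12 libraries were separated by TCM without overlap, and the IL-2 libraries were not, with replicate 3 the lowest of both IL-2 groups. With TCM, S1pr1 was 1.45-fold lower in IL-12 (log2 fold change -0.54 ± 0.15 SE, edgeR adjusted p = 0.02). Leaving out replicate 2 or 3 of IL-12 ended the call (adjusted p = 0.053 and 0.065), as did leaving out replicate 2 or 3 of IL-12 with TCM (0.062 and 0.071). The call stayed in 20 of 24 alternative settings. In IL-2 the change was -0.27 ± 0.15 (edgeR adjusted p = 0.27), and S1pr1 was lower with TCM in 3 of 3 replicate pairs. Blocked by replicate it was -0.29 ± 0.06 and passed the test (edgeR adjusted p = 0.0016), as it did without replicate 3 of both IL-2 groups (adjusted p = 0.043).

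Between the cytokines S1pr1 gave no call, with a log2 difference of IL-12 against IL-2 of -0.09 (95% interval -0.42 to 0.24) without TCM and -0.36 (-0.69 to -0.02) with TCM (edgeR adjusted p = 0.65 and 0.085). The fit with the replicate block called S1pr1 lower in IL-12 with TCM present (edgeR adjusted p = 0.00024). Without replicate 3 of IL-2 with TCM this p was 0.0004. With replicate 3 of both IL-2 groups left out, S1pr1 was called lower in IL-12 in both media (edgeR adjusted p = 0.0039 without TCM and 7.4e-09 with TCM). The S1pr1 groups ranked from IL-12 with TCM over IL-2 with TCM and IL-12 to IL-2, and each overlapped its neighbour. For S1pr1 the TCM effects in the cytokines differed by -0.27 ± 0.22 (edgeR adjusted p = 0.64). The adjusted p of that difference was 0.045 without replicate 3 of IL-2 with TCM and 0.0036 when both replicate 3 libraries were left out.

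The lists of related genes used below hold the member they are built around, and they were chosen with earlier results of these data known. Of all tested genes, 6.73% were higher and 7.82% lower with TCM in IL-2, and 14.8% and 14.2% with TCM in IL-12. In IL-12 against IL-2 these shares were 22.1% and 23% without TCM, and 19.5% and 19.4% with TCM. Every list count of the main fit below is to be read beside these shares, and no list was tested against them. With the replicate block, the shares in either direction were 27.9% for TCM in IL-2 and 42% for TCM in IL-12. For the cytokines they were 56% without TCM and 49% with TCM. List counts with the block are to be read beside those larger shares. With libraries left out or other settings the calls over all genes moved as well, so those list counts have no share beside them here. Of the sphingosine 1-phosphate genes (receptors, kinases, lyase, transporters and receptor signalling), 12 of 15 were tested. With TCM in IL-12, 1 was higher and 3 were lower. S1pr2, a receptor that restrains migration, rose from 10.1 ± 0.5 to 18.1 ± 1.3 CPM (SD, n = 3; 1.81-fold, edgeR adjusted p = 0.0015). S1pr4 fell from 169 ± 3 to 137 ± 2 CPM (SD, n = 3; 1.22-fold, edgeR adjusted p = 0.00096), and Sgpl1, the lyase that degrades the lipid, fell 1.23-fold (edgeR adjusted p = 0.0037). S1pr1 was the other gene of the list that fell. With TCM in IL-2, 0 were higher and 1, Sgpl1, was lower, a call that was lost on leaving out any of 11 single libraries and with either other scaling (adjusted p = 0.057 and 0.058). Beside the 0 higher, 1 gene of this list was higher at an unadjusted p under 0.05 in edgeR, and DESeq2 called 1 and limma 0. Beside the 1 lower, DESeq2 and limma each called 0, and 3 were lower at an unadjusted p under 0.05 in edgeR. Spns2, which exports the lipid, was 2.18-fold lower in IL-12 without TCM and 2.19-fold lower with TCM, at 1.43 to 3.47 CPM (group means). In IL-12 against IL-2 the list had 1 higher and 4 lower genes without TCM, and 2 higher and 2 lower genes with TCM. The replicate block moved the sphingosine counts to 2 higher and 4 lower for TCM in IL-2, to 3 higher for TCM in IL-12, to 2 higher for the cytokines without TCM and to 6 lower with TCM. Leaving out single libraries moved the lower counts between 2 and 5 without TCM and between 1 and 5 with TCM.

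Around Ccr7, 17 of 20 genes of chemokine signalling, adhesion and homing were tested. With TCM in IL-2, edgeR called 0 higher and 4 lower (2 higher at an unadjusted p under 0.05, and 2 each in DESeq2 and limma), and with TCM in IL-12, 3 higher and 2 lower. Vim, an intermediate filament, fell with TCM in both, from 1056 ± 148 to 660 ± 101 CPM in IL-2 and from 1170 ± 4 to 774 ± 48 in IL-12 (SD, n = 3; edgeR adjusted p = 0.0018 and 0.0022). Fut7, a fucosyltransferase that makes selectin ligands, fell 1.48-fold with TCM in IL-2 (edgeR adjusted p = 0.0067, and 0.054 in a fit of those groups alone). In IL-12, Gcnt1, another enzyme of selectin ligands, rose with TCM from 13.7 ± 0.7 to 26.7 ± 0.7 CPM (SD, n = 3; edgeR adjusted p = 0.0038). Between the cytokines without TCM, the largest fold differences of the homing list were those of P2rx7, a receptor for extracellular ATP, with 2.72 ± 0.40 CPM in IL-2 and 70.8 ± 2.8 in IL-12, and of Gpr183, an oxysterol receptor that guides lymphocytes, with 13.6 ± 1.1 and 65.4 ± 2.2 (SD, n = 3; edgeR adjusted p = 3e-09 and 2.7e-07). Genes of the list were 5 higher and 5 lower in IL-12 without TCM, and 4 higher and 5 lower with TCM. The replicate block moved the homing counts to 2 higher and 7 lower for TCM in IL-2, to 7 and 7 for TCM in IL-12, and to 8 and 7 higher for the cytokines without and with TCM. Over single left-out libraries the lower count for TCM in IL-2 ran from 2 (without replicate 1 of IL-2 or replicate 2 of IL-2 with TCM) to 5, and the higher and lower counts for TCM in IL-12 from 1 to 6 and from 1 to 5.

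Cd69, whose protein removes S1PR1 from the cell surface and which is an early activation marker, was higher in IL-12 and fell with TCM there. Its level was 37.0, 27.5 and 27.7 CPM in IL-2 and 31.2, 29.8 and 37.9 in IL-2 with TCM. Under IL-12 the values were 52.8, 59.6 and 57.1 CPM, and in IL-12 with TCM 47.3, 42.1 and 42.4. Each IL-12 library lay above each IL-2 library of either medium, and only in IL-12 did TCM separate the libraries without overlap. Cd69 was 1.81-fold higher in IL-12 than in IL-2 (log2 fold change 0.86 ± 0.12 SE, edgeR adjusted p = 6.5e-05). With TCM in both it was 1.33-fold higher (0.41 ± 0.12, edgeR adjusted p = 0.013), which missed the threshold without replicate 1 or 2 of IL-2 with TCM (adjusted p = 0.054 and 0.07) or replicate 1 of IL-12 with TCM (0.073). Within IL-12 it was 1.27-fold lower with TCM (-0.35 ± 0.12, edgeR adjusted p = 0.039). Leaving out replicate 2 or 3 of IL-12 (adjusted p = 0.11 and 0.091) or of IL-12 with TCM (0.12 in each case) ended the call, as did upper-quartile scaling (0.051). The call within IL-12 stayed in 19 of 24 alternative settings. By mean, IL-2 was lowest, then IL-2 with TCM, then IL-12 with TCM, and IL-12 highest, and only the IL-2 groups overlapped. In IL-2 the TCM effect on Cd69 was 0.10, with a 95% interval of -0.16 to 0.35. The difference of the effects was -0.44 ± 0.17 (edgeR adjusted p = 0.23, and 0.019 with the replicate block).

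Klf2, the transcription factor of S1pr1 and of quiescence, fell the most of the 9 genes with TCM in IL-12. Its level was 69.6, 66.5 and 48.6 CPM in IL-2 and 60.8, 59.6 and 31.1 in IL-2 with TCM. IL-12 libraries showed 45.2, 41.3 and 48.4 CPM, and in IL-12 with TCM 16.4, 19.9 and 21.7. The IL-12 libraries with TCM lay below all 9 others, while the other neighbouring groups in the order, IL-12, IL-2 with TCM and IL-2, overlapped. With TCM in IL-12, Klf2 was 2.30-fold lower (log2 fold change -1.20 ± 0.21 SE, edgeR adjusted p = 0.0012), a larger absolute change than in 96.4% of tested genes. In IL-12 against IL-2 it was 2.60-fold lower with TCM in both (-1.38 ± 0.21, edgeR adjusted p = 2e-04). Without TCM the difference was -0.48 ± 0.20 (edgeR adjusted p = 0.068), and the replicate block called it (-0.46 ± 0.08, adjusted p = 7.6e-05). That p was 0.029 without replicate 3 of IL-2 and 0.0029 without replicate 3 of IL-2 with TCM.

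In IL-2, Klf2 was lower with TCM in 3 of 3 replicate pairs, by -0.20, -0.16 and -0.64 on the log2 scale for replicates 1 to 3. The mean change of -0.29 ± 0.20 did not pass the test (edgeR adjusted p = 0.36), and with the replicate block it was -0.33 ± 0.09 (edgeR adjusted p = 0.0061). The TCM effects on Klf2 differed by -0.90 ± 0.29 between the cytokines (edgeR adjusted p = 0.16). With the replicate block the difference was -0.87 ± 0.13 (edgeR adjusted p = 9.6e-05), and without replicate 3 of IL-2 with TCM its adjusted p was 0.0015.

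Foxo1, the factor upstream of Klf2 and Ccr7, moved in opposite directions with TCM in the cytokines. Its level was 173, 171 and 189 CPM in IL-2 and 151, 159 and 143 in IL-2 with TCM. The values in IL-12 were 221, 216 and 220 CPM, and in IL-12 with TCM 254, 266 and 253. No neighbouring groups overlapped, in the order IL-2 with TCM, IL-2, IL-12 and IL-12 with TCM. Foxo1 fell 1.19-fold with TCM in IL-2 (log2 fold change -0.25 ± 0.06 SE, edgeR adjusted p = 0.012, and 0.097 in a fit of those groups alone) and was lower in 3 of 3 replicate pairs. With TCM in IL-12 it rose 1.19-fold (0.25 ± 0.06, edgeR adjusted p = 0.0054). The difference of the effects was 0.50 ± 0.08 (95% interval 0.33 to 0.67, edgeR adjusted p = 0.0083). In IL-12 against IL-2 it was 1.21-fold higher without TCM (0.28 ± 0.06, edgeR adjusted p = 0.0015) and 1.71-fold higher with TCM (0.77 ± 0.06, edgeR adjusted p = 1.8e-07). In the GENCODE M21 transcripts, 6.77% of the 50-base stretches of Foxo1 also lie on the opposite strand, nearly all in Gm20402, which had 0 counts in every library.

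**Figure D2:**
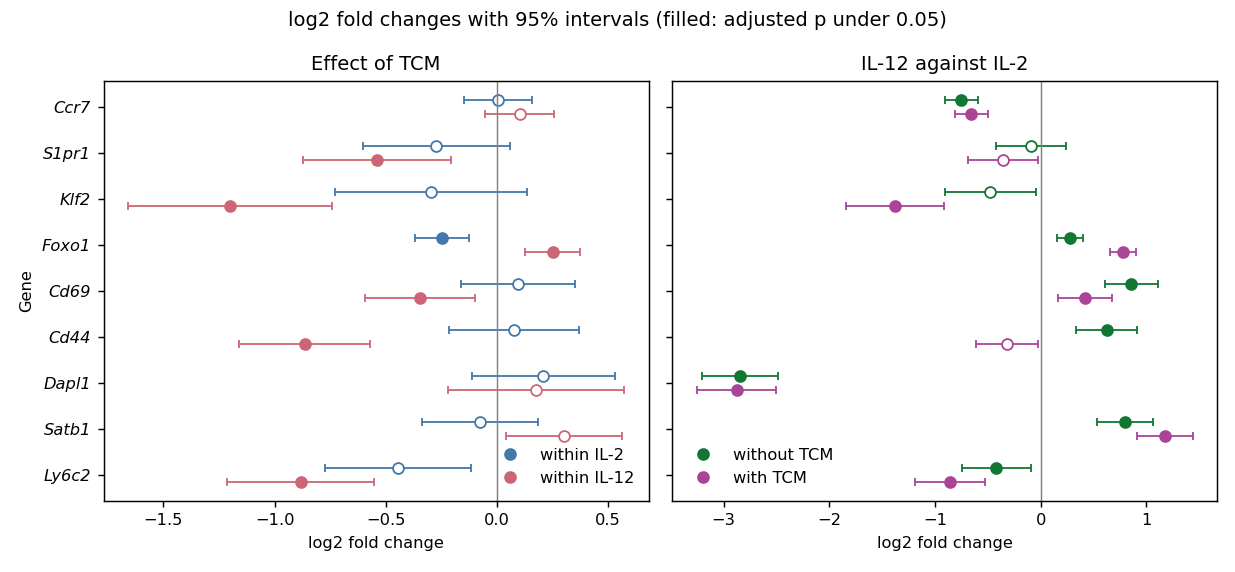
log2 fold changes of the 9 genes with 95% intervals from the edgeR fit, left for TCM within IL-2 and within IL-12, right for IL-12 against IL-2 without and with TCM. Filled points passed an adjusted p of 0.05; Foxo1 lies at -0.25 in IL-2 and 0.25 in IL-12, and Dapl1 near -2.8 to -2.9 between the cytokines.

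The FOXO and KLF2 network (factors, their targets and the kinase pathway above them) had 28 tested genes. With TCM in IL-12, 6 were higher and 8 lower, where 14.8% and 14.2% of all tested genes were. With TCM in IL-2, 2 were higher and 2 lower, near the shares of all tested genes (6.73% and 7.82%). Txnip, an inhibitor of thioredoxin and a FOXO target, rose with TCM from 388 ± 38 to 541 ± 31 CPM in IL-2 and from 374 ± 26 to 699 ± 38 in IL-12 (SD, n = 3; edgeR adjusted p = 0.002 and 9.5e-06). Bcl6, a repressor of effector genes, rose 1.97-fold with TCM in IL-2 (edgeR adjusted p = 1.9e-05) and was 2.04-fold higher in IL-12 than in IL-2 without TCM (edgeR adjusted p = 4.5e-07). Between the cytokines the network had 9 higher and 12 lower genes both without and with TCM. With TCM in both, Klf3 was 2.39-fold lower in IL-12 and Il7r, the IL-7 receptor, 2.46-fold higher (edgeR adjusted p = 1e-06 and 1.3e-06). The replicate block moved the network counts for TCM in IL-2 to 4 higher and 8 lower, and leaving out single libraries to between 2 and 5 higher (5 without replicate 3 of IL-2 with TCM) and between 1 and 3 lower (1 without replicate 1 of IL-2 or replicate 1 or 2 of IL-2 with TCM).

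Satb1, the chromatin organiser, was higher in IL-12. Its level was 507, 512 and 412 CPM in IL-2 and 504, 520 and 339 in IL-2 with TCM. IL-12 cells had 844, 835 and 836 CPM, and in IL-12 with TCM 1027, 999 and 1041. The groups with and without TCM overlapped in IL-2 and did not overlap in IL-12, and all 6 IL-12 libraries lay above all 6 IL-2 libraries. By mean, IL-2 with TCM was lowest and IL-12 with TCM highest. Satb1 was 1.73-fold higher in IL-12 without TCM (log2 fold change 0.79 ± 0.12 SE, edgeR adjusted p = 0.00018) and 2.25-fold higher with TCM (1.17 ± 0.12, edgeR adjusted p = 6.1e-06). The TCM effect in IL-12 was 0.30 ± 0.12 and missed the threshold (edgeR adjusted p = 0.079). It was called with the replicate block (adjusted p = 7.5e-05), in a fit of those groups alone (5.7e-07) and without replicate 3 of IL-2 with TCM (0.0034). In IL-2 the TCM effect on Satb1 was -0.08 (95% interval -0.34 to 0.19). The effects differed by 0.38 ± 0.17 (edgeR adjusted p = 0.33, and 0.0011 with the replicate block). Among 11 tested genes for SATB1 and its chromatin partners, 0 were called with TCM in IL-2 by edgeR, DESeq2 or limma, and 0 reached an unadjusted p of 0.05 in edgeR, while 1 was higher and 3 were lower with TCM in IL-12. Smarca5, a chromatin remodeler, fell there from 240 ± 9 to 180 ± 4 CPM (SD, n = 3; edgeR adjusted p = 7e-05). In IL-12 against IL-2, 5 were higher and 1 lower without TCM and 3 higher and 1 lower with TCM, the histone deacetylases Hdac1 and Hdac2 being higher (1.20- and 1.30-fold without TCM) and Cux1 lower (1.33-fold). The block gave 2 higher with TCM in IL-12 and 3 lower in IL-12 against IL-2 with TCM. For TCM in IL-12, leaving out single libraries gave 0 to 2 higher and 1 to 3 lower (1 when the library left out was replicate 1 of IL-12 or, with TCM, replicate 2).

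Cd44, the hyaluronan receptor of activated and memory T cells, was highest in IL-12 without TCM. Its level was 89.9, 85.0 and 118 CPM in IL-2 and 88.6, 95.5 and 127 in IL-2 with TCM. For IL-12 the levels were 156, 155 and 147 CPM, and in IL-12 with TCM 86.1, 80.0 and 83.0. The IL-12 libraries without TCM lay above all 9 others, and the remaining neighbours in the order (IL-12 with TCM, IL-2, IL-2 with TCM) overlapped. Cd44 fell 1.82-fold with TCM in IL-12 (log2 fold change -0.86 ± 0.14 SE, edgeR adjusted p = 0.00058) and was 1.54-fold higher in IL-12 than in IL-2 without TCM (0.62 ± 0.13, edgeR adjusted p = 0.0022). In IL-2 the TCM effect was 0.08 (95% interval -0.21 to 0.37). The difference of the effects was -0.94 ± 0.19 (edgeR adjusted p = 0.028), and leaving out any library of the IL-12 groups or replicate 1 or 2 of IL-2 gave adjusted p-values of 0.05 to 0.076. With the replicate block that p was 1.2e-08. With TCM in both, Cd44 in IL-12 differed from IL-2 by -0.32 ± 0.14 (edgeR adjusted p = 0.08). This was called with the replicate block (adjusted p = 3.3e-05), with upper-quartile scaling (0.033) and without replicate 3 of IL-2 (0.021) or replicate 1 of IL-2 with TCM (0.025).

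For CD44, its ligands and its partners, 16 of 20 genes were tested. With TCM, edgeR called 0 higher and 3 lower in IL-2, and 0 higher and 7 lower in IL-12. At an unadjusted p under 0.05 in edgeR, 3 were higher in IL-2 and 1 in IL-12, where DESeq2 called 0 and 1 and limma 0 in either. Cd74, the invariant chain that pairs with CD44 as a receptor for MIF, was 35.0 ± 4.8 CPM in IL-2 and 17.4 ± 3.5 in IL-2 with TCM, 15.5 ± 1.1 in IL-12 and 8.28 ± 0.67 in IL-12 with TCM (SD, n = 3). It fell with TCM 2.02-fold in IL-2 and 1.85-fold in IL-12 (edgeR adjusted p = 0.00034 and 0.00057). Itgb1, an integrin chain, fell 1.37- and 1.30-fold (edgeR adjusted p = 3.9e-05 and 5.3e-05). Between the cytokines, 5 of the CD44 list were higher and 3 lower in IL-12 without TCM, and 2 were higher and 4 lower with TCM. The replicate block moved the CD44 counts with TCM to 4 higher and 5 lower in IL-2 and to 2 higher in IL-12. Upper-quartile scaling gave 2 higher without TCM in place of 5, and leaving out replicate 1 of IL-12 gave 3. With TCM, leaving out any of 8 single libraries gave 1 higher in place of 2.

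Activation markers, which include Cd69 and Cd44, were 19 tested genes, of which 11 were higher and 3 lower in IL-12 without TCM, and 8 higher and 4 lower with TCM. Il2ra, a chain of the IL-2 receptor, was 490 ± 20 CPM in IL-2 and 1357 ± 55 in IL-12, and 503 ± 37 and 1696 ± 50 with TCM (SD, n = 3; edgeR adjusted p = 1.5e-09 and 1.7e-10). Icos, a costimulatory receptor, was 2.62-fold higher in IL-12 in both media (edgeR adjusted p = 2.7e-09 and 1.9e-09). Nr4a3, an early response factor, was lower in IL-12 than in IL-2, 1.93-fold without TCM and 3.69-fold with TCM in both (edgeR adjusted p = 0.00032 and 1.2e-06). With TCM, 4 activation markers were higher and 3 lower in IL-2, and 6 were higher and 7 lower in IL-12. Tfrc, the transferrin receptor, fell with TCM 1.55-fold in IL-2 and 1.44-fold in IL-12 (edgeR adjusted p = 0.00055 and 0.00076), and Cd38, an ectoenzyme, rose 2.14- and 2.37-fold (edgeR adjusted p = 0.0055 and 0.0011). The replicate block gave 8 higher activation markers with TCM in IL-2, and leaving out replicate 3 of IL-2 with TCM gave 7. Leaving out 7 of the 12 libraries singly, and limma on the deposited CPM, lowered the 6 higher with TCM in IL-12 to 3.

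Ly6c2, which encodes a Ly6C protein of memory CD8+ T cells, fell with TCM in IL-12. Its level was 485, 458 and 355 CPM in IL-2 and 326, 401 and 231 in IL-2 with TCM. Libraries of IL-12 held 327, 309 and 347 CPM, and in IL-12 with TCM 182, 183 and 162. The IL-12 libraries with TCM lay below all others, IL-2 with TCM overlapped both IL-12 and IL-2, and in IL-2 the lowest library of either medium was replicate 3. With TCM in IL-12, Ly6c2 was 1.84-fold lower (log2 fold change -0.88 ± 0.15 SE, edgeR adjusted p = 0.0011). In IL-2 the change was -0.44 ± 0.15 (edgeR adjusted p = 0.068), with 3 of 3 replicate pairs lower. It was called with the replicate block (-0.47 ± 0.07, adjusted p = 2.4e-05), with DESeq2 (0.026), without replicate 3 of IL-2 (0.025) and without replicate 2 of IL-2 with TCM (0.017). The TCM effects on Ly6c2 differed by -0.44 ± 0.22 (edgeR adjusted p = 0.37, and 0.0071 with the replicate block).

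In IL-12 against IL-2, Ly6c2 was 1.81-fold lower with TCM (log2 fold change -0.86 ± 0.15 SE, edgeR adjusted p = 0.00064). Without TCM it was 1.34-fold lower (-0.42 ± 0.15, edgeR adjusted p = 0.038). That call was lost in all 3 limma fits (0.06 to 0.063) and on leaving out any of 9 single libraries (0.053 to 0.15), all but replicate 3 of IL-2 and replicates 2 and 3 of IL-2 with TCM. Of the 50-base stretches of Ly6c2 transcripts, 14.4% occur in other genes, mostly in its close paralog Ly6c1, so that the split of reads between them is uncertain. Ly6c1 itself had 0.365 to 1.90 CPM. Of 6 tested Ly6 family genes, Ly6c2 was the only one lower with TCM in IL-12, while 3 were higher. Ly6i, a family member with 0.470 ± 0.124 CPM in IL-2, rose 2.12-fold with TCM in IL-2 and 2.13-fold in IL-12 (edgeR adjusted p = 0.012 and 0.0016), the first lost without replicate 2 of IL-2 (0.054). Ly6a, which encodes Sca-1, was 501 ± 14 CPM in IL-2 and 982 ± 7 in IL-12 (SD, n = 3; 1.93-fold, edgeR adjusted p = 2.6e-06). The family had 2 higher and 0 lower genes with TCM in IL-2, with 1 lower under the replicate block, at an unadjusted p under 0.05 in edgeR and in DESeq2 and 0 in limma, and 3 higher and 1 lower in either cytokine comparison.

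Dapl1, the marker of naive and memory-like CD8+ T cells, had the largest difference of the 9 between the cytokines. Its level was 59.3, 58.3 and 44.8 CPM in IL-2 and 69.3, 74.9 and 44.3 in IL-2 with TCM. Cells in IL-12 had 7.39, 8.24 and 7.20 CPM, and in IL-12 with TCM 8.52, 8.27 and 8.80. Every IL-12 library lay below every IL-2 library, and the IL-2 groups overlapped each other. In IL-12, Dapl1 was 7.18-fold lower without TCM (log2 fold change -2.84 ± 0.17 SE, edgeR adjusted p = 2.5e-08) and 7.35-fold lower with TCM (-2.88 ± 0.17, edgeR adjusted p = 2.4e-08), larger absolute changes than in 98.8% and 98.4% of tested genes. Both stayed called in all 24 alternative settings, with log2 fold changes of -2.96 to -2.22 without TCM, the smallest when 5 CPM were added before taking the log. With TCM the change was 0.21 ± 0.15 in IL-2 (edgeR adjusted p = 0.39) and 0.18 in IL-12 (95% interval -0.22 to 0.57), although the IL-12 libraries with TCM were all above those without. In IL-2 it was called higher with the replicate block (0.19 ± 0.07, adjusted p = 0.032), without replicate 3 of IL-2 with TCM (0.0096) and without replicate 3 of both IL-2 groups (0.00064).

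All 34 genes listed for quiescence and the naive or memory state were tested. With TCM, 6 were higher and 2 lower in IL-2, and 10 were higher and 3 lower in IL-12. Rapgef4, an exchange factor for RAP1, rose with TCM from 10.8 ± 1.5 to 16.6 ± 1.7 CPM in IL-2 and from 9.31 ± 1.19 to 18.3 ± 0.7 in IL-12 (SD, n = 3; edgeR adjusted p = 0.0054 and 9.5e-05). Btg2, an antiproliferative gene, rose with TCM in IL-2 from 74.5 ± 2.4 to 106 ± 17 CPM (SD, n = 3; edgeR adjusted p = 0.0029, and 0.056 in a fit of those groups alone). Between the cytokines, 12 quiescence genes were higher and 13 lower in IL-12 without TCM, and 11 higher and 14 lower with TCM. Igfbp4, a naive T cell marker, was 22.5 ± 4.7 CPM in IL-2 and 124 ± 5 in IL-12, and 13.6 ± 3.3 and 204 ± 16 with TCM (SD, n = 3; edgeR adjusted p = 5.4e-08 and 8e-10). Bcl2, a survival gene, was 343 ± 13 CPM in IL-2 and 141 ± 3 in IL-12 (edgeR adjusted p = 2.7e-10). The replicate block moved the counts with TCM to 13 higher and 4 lower in IL-2 and to 16 higher and 8 lower in IL-12. Leaving out replicate 3 of IL-2 with TCM gave 12 higher in IL-2 and 7 lower in IL-12, and leaving out replicate 1 or 2 of IL-2 gave 1 lower in IL-2.

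**Figure D3:**
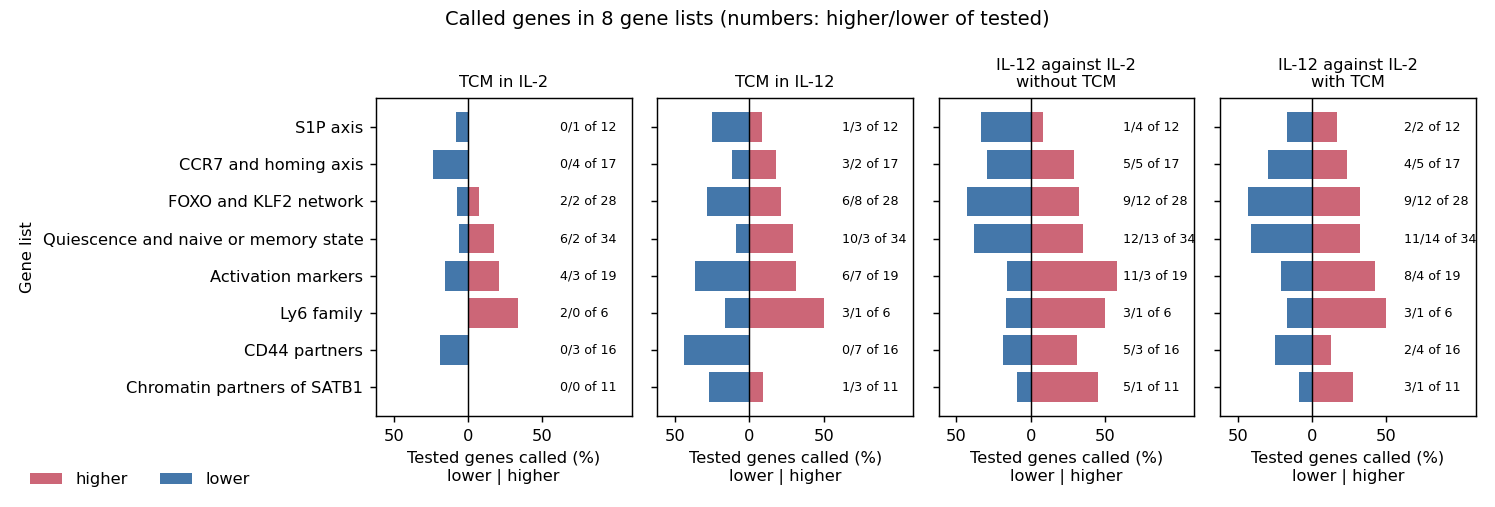
Share of tested genes called higher (right of 0) and lower (left of 0), in percent, in 8 gene lists for 4 comparisons, with the counts as higher/lower of tested. With TCM in IL-12, 0 of 16 genes of the CD44 list were higher and 7 lower (14.8% and 14.2% of all tested genes). In IL-12 against IL-2 without TCM, 11 of 19 activation markers were higher and 3 lower (22.1% and 23% of all tested genes).

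The replicate pairs of the IL-2 groups show where the unblocked and the blocked fits part. A pair here is 2 libraries of equal replicate number, a match that the labels do not give. S1pr1, Klf2, Foxo1 and Ly6c2 were lower with TCM in 3 of 3 pairs. The log2 ratios for S1pr1 were -0.27, -0.07 and -0.52, for Foxo1 -0.20, -0.11 and -0.41, and for Ly6c2 -0.57, -0.19 and -0.62, for replicates 1 to 3. In each of these 4 genes the pair of replicate 3 had the lowest ratio. Ccr7, Cd69, Cd44, Dapl1 and Satb1 had pairs on both sides of 0, and for Ccr7 and Cd69 it was the pair of replicate 3 that lay highest, at 0.28 and 0.45.

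**Figure D4:**
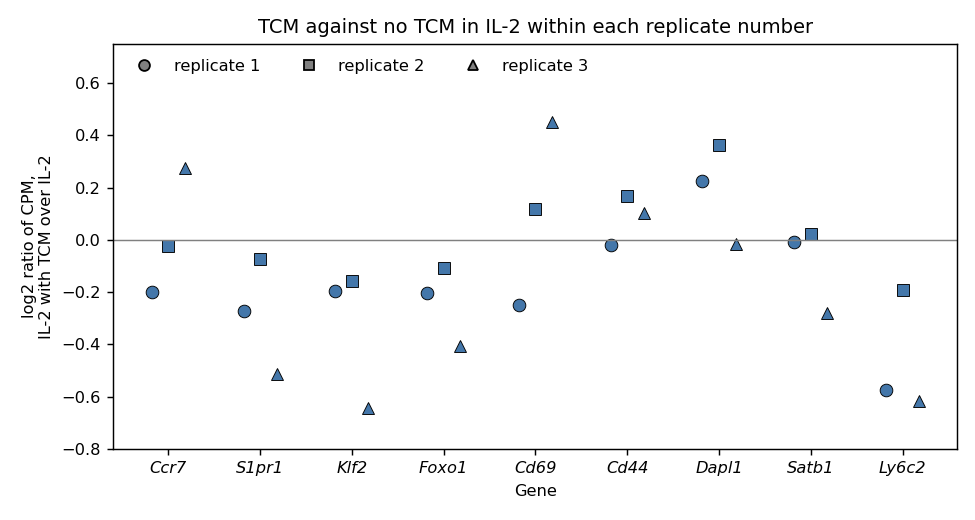
log2 ratio of CPM in IL-2 with TCM over IL-2 within each replicate number, for the 9 genes, with a marker shape per replicate. S1pr1, Klf2, Foxo1 and Ly6c2 lie below 0 in 3 of 3 pairs, and replicate 3 is lowest in these 4 genes.

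Across the 12 libraries, the levels of the 9 genes fell into patterns that are given here as descriptions, as Pearson's r of log2(CPM + 1) over libraries that share group and replicate effects. Klf2 and Ly6c2 had r = 0.96, S1pr1 and Ly6c2 0.90, and S1pr1 and Klf2 0.87. Ccr7 and Dapl1 had r = 0.97, and Foxo1 and Satb1 0.92, while Ccr7 and Foxo1 had -0.88. Among all tested genes with an established symbol, the one most like Dapl1 was Fam169b (r = 0.997). The most similar pattern to Ccr7 was that of Trpm1 (0.984), followed by Ccr9, a gut-homing chemokine receptor (0.983), and Mbp (0.982). For Satb1 it was Malt1, a paracaspase of antigen receptor signalling (0.992), for Cd44 Gpc1 (0.984), for Foxo1 Aqp9 (0.985), for S1pr1 Add3 (0.970), for Ly6c2 Ttc7 (0.974) and for Cd69 Grpel1 (0.956). Each r is over 12 points from 4 groups and has no test.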

How the data were processed

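Bulk RNA sequencing libraries of the 12 samples were grouped by the treatment in their labels. Gene counts were deposited by the authors as a table, and the deposited signal per gene equals counts per 1e+06 counts on library sizes scaled by TMM, as recomputation from the counts gave a ratio of 1 for every value. The submitters' processing notes name STAR 2.7.7a, edgeR without a version, and the human build GRCh38, although the identifiers are those of mouse, so the files' coordinates were not used. Per the labels' protocols the libraries were directional, and whether the counting used strand is not stated in those sources. Symbols matched 55141 identifiers and 346 had none.

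The counts were tested in edgeR 4.0.16 (R 4.3.3) with TMM, filterByExpr (minimum count 10, minimum total 15), 1 mean per group over the 12 libraries and quasi-likelihood F tests, adjusted by Benjamini-Hochberg over 15897 genes (threshold 0.05, common biological coefficient of variation 0.104). Standard errors were derived as the log2 fold change over the root of F. Depth was 19.5 to 49.6 counts per library in units of 1e+06, and counting error is a larger share of the spread between replicates in genes of low CPM. The members and lists were chosen with earlier results of these data known. Named are all 9 genes, up to 3 called genes with the smallest p per list and comparison (not all are printed), and the genes with the highest Pearson r to each of the 9. Residual correlations between equal replicate numbers were 0.28, 0.25 and 0.57 for the IL-2 groups, and those between replicates 1 and 2 were as high (0.30 and 0.27). For other pairs of groups they were near 0. Between replicates the chi-square per degree of freedom was 2.40 to 5.51, and 28.5 to 45.4 with replicate 3 of an IL-2 group. Alternatives were upper-quartile scaling or the size factors of DESeq2 1.42.0, its Wald test, a minimum mean of 5 CPM or no filter, limma 3.58.1 on log2 of the CPM plus 1, 0.1 or 5, only the groups compared, the replicate block, and libraries left out. On simulated data for TCM in IL-2, edgeR recovered 41 of 50 genes changed 1.5-fold and 50 of 50 changed 2-fold, with 11 of 15697 unchanged genes called. These rates describe the simulated counts only. In the real IL-2 groups, pairs with replicate 3 spread far more widely than the others (28.5 to 45.4, as given above). Whether the rates of recovered and falsely called genes hold at that spread was not tested.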

Additional observations from a re-analysis of the deposited data

Results flagged for a closer look

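The TCM effect on Foxo1 differed between the cytokines by 0.50 on the log2 scale (0.499, edgeR adjusted p = 0.0083): the mean went from 178 ± 10 to 151 ± 8 CPM in IL-2 and from 219 ± 3 to 258 ± 8 CPM in IL-12 (SD, n = 3). It stayed called in every alternative setting run. The TCM effect on Cd44 differed by -0.94 (edgeR adjusted p = 0.028): the mean went from 97.6 ± 17.8 to 104 ± 20 CPM in IL-2 and from 153 ± 5 to 83.0 ± 3.1 CPM in IL-12. Leaving out 8 of the 12 libraries singly raised that p to between 0.05 and 0.076.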

How the results depend on the processing

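Of the 9 genes, 1 was called with TCM in IL-2. That count was 4 with no filter on low counts and when both replicate 3 libraries of IL-2 were left out, 2 with DESeq2 and with a replicate block over all libraries, 5 with the replicate block in the IL-2 groups alone, 0 with only the groups compared (where the lowest adjusted p was 0.097, for Foxo1), and 1 to 2 with single libraries left out. For the difference of the TCM effects the count of 2 became 6 with no filter and with the block in the IL-2 groups alone, 7 when both replicate 3 libraries were left out, and 1 to 5 with single libraries left out. Over single left-out libraries it was 4 to 7 (from 6) with TCM in IL-12, and 6 to 8 (from 7) in each cytokine comparison. Calls over all genes in those fits were 2931 to 5697 (from 4617) with TCM in IL-12. Between the cytokines they were 5595 to 8153 (from 7171) without TCM and 4910 to 6747 (from 6192) with TCM. The cause of these moves was not tested. Log2 fold changes that reversed were small and uncalled. With TCM in IL-2, Cd44 was -0.0087 without replicate 2 of IL-2, and Ccr7 -0.076 without replicate 3 of IL-2. Without replicate 3 of IL-2 with TCM, Ccr7 was -0.026, Cd69 -0.014, Cd44 -0.087 and Satb1 0.10. With both replicate 3 libraries left out, Ccr7 was -0.11, Cd69 -0.080 and Satb1 0.0075. Over single left-out libraries Ccr7 ran from -0.076 to 0.081, Cd69 from -0.014 to 0.26, Cd44 from -0.087 to 0.25 and Satb1 from -0.17 to 0.10. S1pr1 in IL-12 against IL-2 ran from -0.20 to 0.047, and was 0.047 without replicate 1 of IL-2. The Dapl1 difference of effects was 0.010 with the block over all libraries, 0.068 without replicate 3 of IL-2, 0.028 and 0.094 without replicate 1 or 2 of IL-2 with TCM, 0.020 without replicate 2 of IL-12, and -0.25 to 0.094 over single libraries. The replicate block changed no other call among the 9 genes than those given. Over all genes, calls with TCM in IL-2 were 2313 in the main analysis, 587 with only the groups compared, 4442 with the block and 3936 without replicate 3 of both. They were 2841 with no filter (of 32285 genes), 2521 with DESeq2 and 2722 with the block over all libraries. Single left-out libraries gave 1292 to 2938. The difference of the TCM effects had 251 calls, 779 with no filter, 1668 with the block and 2105 without replicate 3 of both. Single left-out libraries gave 105 to 1164 there. With 3 libraries a group, changes under 1.5-fold can go uncalled at these depths, and so can larger ones where libraries spread widely. With TCM in IL-2, Tnfrsf9 changed 1.82-fold and was not called (edgeR adjusted p = 0.27).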
